A study of Mus musculus with 11 samples.

Results

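The genes described here are 8 that mark, or work beside, the ammonia-scavenging hepatocytes around the central vein of the liver: Glul, Oat, Rhbg, Slc1a2, Slc1a4, Lect2, Avpr1a and Rgn. They were picked by name from the 43346 genes of the deposited count table, and all 8 were among the 17610 genes tested. The livers came from FVB/NJ mice bearing hepatocellular carcinoma induced by 2 expressed proteins: β-catenin, which relays Wnt signals to genes, and MET, the receptor kinase for hepatocyte growth factor. All libraries carry a treatment label that names anti-PD-1, a checkpoint antibody that blocks a brake on T cells. By their response label, 6 libraries were responders, 4 were non-responders and 1 had no treatment; that last one is called untreated here after its response label alone. The sources used here do not give the age or sex of the mice, the promoter that drives the transgenes, or how much of each liver piece was tumour. The labels do not say whether each library is a mouse of its own, so the spread that p-values are set against here is that of libraries and may be technical.

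Ammonia that reaches the liver is handled in sequence along the sinusoid. Periportal hepatocytes release it from glutamine through glutaminase 2 and convert it to urea, and a thin layer of perivenous hepatocytes captures what escapes as glutamine, with glutamine synthetase. Wnt signals from the central vein, acting through β-catenin, keep this perivenous programme on in normal liver, and glutamine synthetase is widely used as a stain for liver tumours with active β-catenin.

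Values below are CPM (read counts scaled to a fixed library total) adjusted by the trimmed mean of M-values (TMM) unless RPKM is named, and fold changes are responder over non-responder. Depth in gene counts was 17876515 to 40565708 for responders, 25542066 to 39941835 for non-responders and 49884800 for the untreated library. The lowest count of any of the 8 genes in any library was 130, for Slc1a4. Non-responder replicate 1 stood apart: in all 8 genes its reads lay further toward the 3′ end than in every other library. Responder replicates 4 and 6 also stood apart from the other responders in Afp, the fetal liver and tumour gene, at 121 and 99.8 CPM. The other 4 responders held 1.38 to 2.29 CPM of Afp, against 115 to 382 CPM in non-responders and 1.71 CPM in the untreated library. Summed hepatocyte markers came to 60730 to 74977 CPM in responders, against 90423 to 117397 CPM in non-responders, most of it Alb. Of the 6 markers, Apoa1 was called lower and Tat higher in responders, and the others did not pass. Alb was 48588 to 62619 CPM in responders and 76514 to 91021 CPM in non-responders. Ttr leaned the other way, at 3137 to 4800 CPM in responders and 1007 to 2898 CPM in non-responders. So did Serpina1c, at 181 to 543 CPM in responders and 136 to 272 CPM in non-responders. Hnf4a was 602 to 678 CPM in responders and 601 to 712 CPM in non-responders. Muscle markers stayed at or below 0.262 CPM in every library.

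In responders, 3 of the 8 genes were lower than in non-responders: Slc1a4, a neutral amino acid exchanger, Rhbg, an ammonia channel, and Avpr1a, a vasopressin receptor. The other 5 did not pass the test, among them Glul, Oat and Slc1a2, and no member was higher, also at an unadjusted p under 0.05 and with DESeq2 or limma-voom. Over all genes tested, 5.82% were lower and 4.11% were higher in responders by the same rule (edgeR's quasi-likelihood test, Benjamini-Hochberg adjusted p under 0.05). The log2 fold change was negative for 7 of the 8, with a median of -0.98, beside a median of -0.02 over all genes tested. Only Slc1a4 had every responder below every non-responder, a separation found in 5.62% of all genes tested. In bulk RNA, fewer cells of a type and less RNA per cell cannot be told apart.

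**Figure D1:**
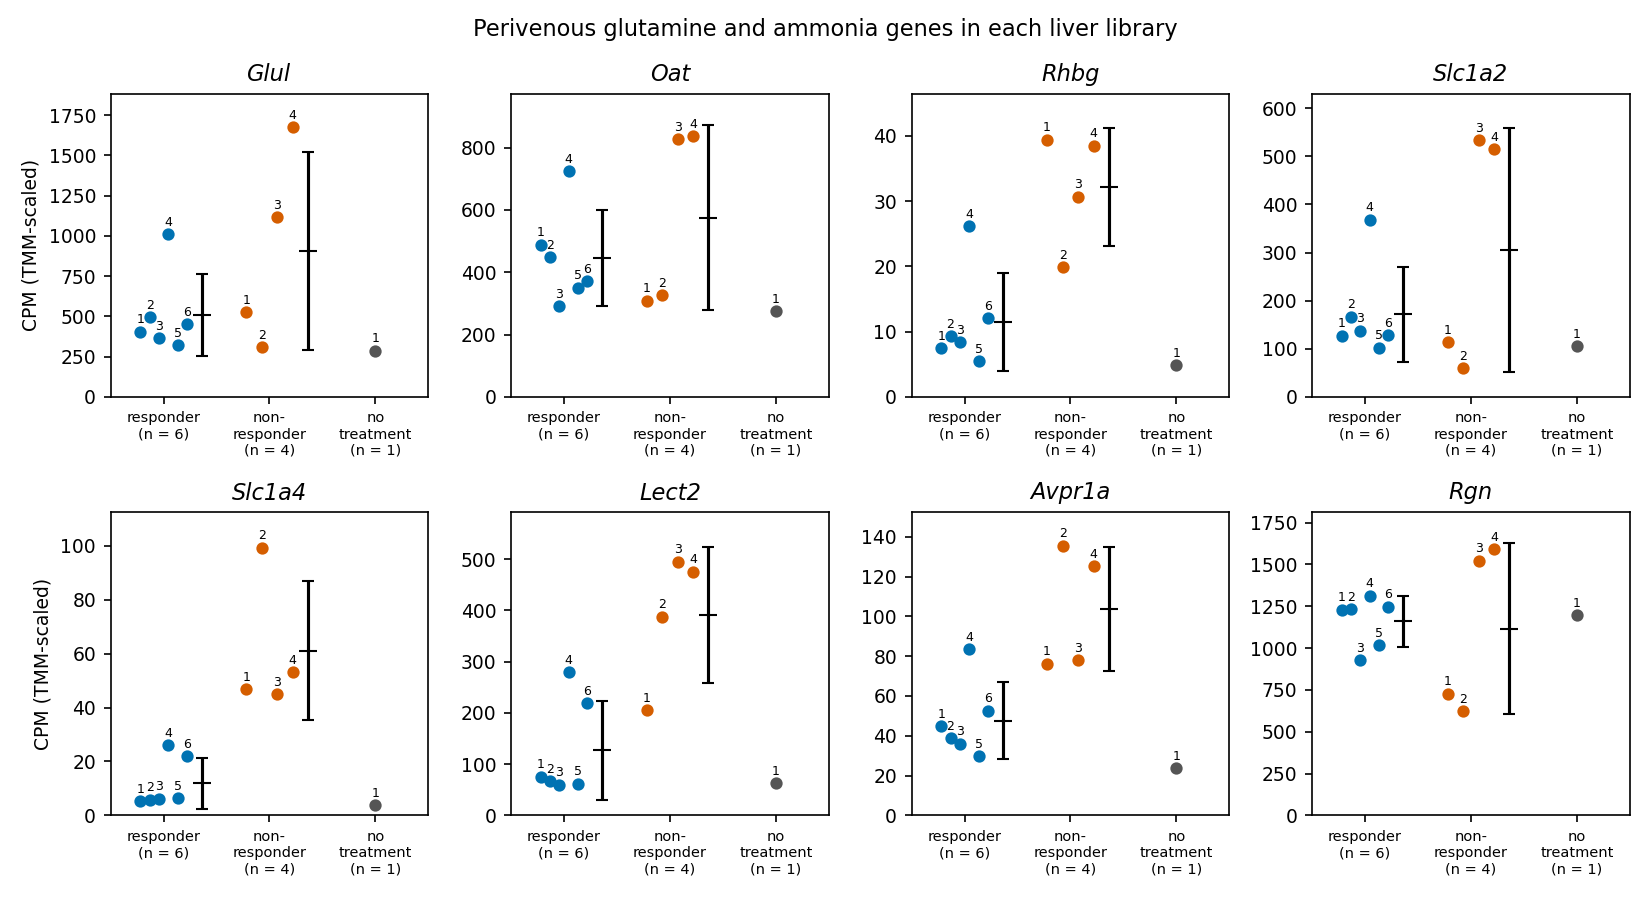
TMM-scaled CPM of the 8 genes in each library (points, numbered by replicate) for responders, non-responders and the untreated library, with the mean and SD of each group of more than 1 beside the points. Glul, Oat and Slc1a2 peak in non-responders 3 and 4 and in responder 4, while Slc1a4 separates the groups, with responders at 26 CPM or less and non-responders at 45.1 CPM or more.

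Glul encodes glutamine synthetase, the enzyme that joins ammonia to glutamate, and lies on the plus strand of chromosome 1 at 153899944 to 153909723 (mm10). Glul measured 404, 497, 363, 1012, 320 and 450 CPM in the 6 responders, against 526, 310, 1116 and 1674 CPM in the 4 non-responders. The untreated liver held 287 CPM, below every other library. The 2 groups overlapped, because non-responder 2 lay below every responder and responder 4 lay above non-responders 1 and 2. The means were 508 ± 255 in responders and 906 ± 615 in non-responders (SD, n = 6 and 4), with a log2 fold change of -0.84 ± 0.44 (SE) and an adjusted p of 0.251 in edgeR's quasi-likelihood test. The 95% interval of that change ran from -1.71 to 0.03 and thus held 0. Reads can be split between Glul and its pseudogene Glns-ps1, which held between 2.88% and 5.31% as many counts as Glul in the same libraries.

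Oat encodes ornithine aminotransferase, a mitochondrial enzyme that turns ornithine toward glutamate, and lies on the minus strand of chromosome 7 at 132557475 to 132576398. Its responder libraries held 489, 449, 291, 724, 350 and 372 CPM, against 309, 327, 828 and 836 CPM in non-responders and 275 CPM in the untreated liver. Non-responders 3 and 4 and responder 4 were the 3 highest libraries, as for Glul, and non-responders 1 and 2 lay among the other responders. Oat averaged 446 ± 153 CPM in responders and 575 ± 297 CPM in non-responders (SD, n = 6 and 4), and its log2 fold change of -0.37 ± 0.34 did not pass (edgeR adjusted p 0.515, 95% interval -1.03 to 0.29).

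Rhbg encodes a Rhesus family protein that carries ammonia across the basolateral membrane of perivenous hepatocytes. It lies on the minus strand of chromosome 3 at 88242874 to 88254709. Counts gave 7.46, 9.29, 8.43, 26.1, 5.42 and 12.0 CPM in responders, against 39.4, 19.9, 30.7 and 38.5 CPM in non-responders and 4.89 CPM in the untreated liver. All responders but replicate 4 lay below all non-responders. Rhbg averaged 11.5 ± 7.51 CPM in responders and 32.1 ± 9.05 CPM in non-responders (SD, n = 6 and 4) and fell by 1.5 ± 0.39 on the log2 scale (edgeR adjusted p 0.0357). The Rhbg values are uncertain, because 61.4% of its exon bases (1190 of 1937) are shared with a second annotated gene that the count table calls RHBG, and reads there cannot be assigned to either. In the 1 of 10 Rhbg exons free of that overlap, an alternative added after seeing the data, responders held 1.48 ± 0.87 CPM and non-responders 3.47 ± 1.87 CPM. That gave a log2 difference of -1.23 with a p of 0.0667 in a two-sided exact permutation test. The exon used is exon 1, at the 5′ end. Non-responder 1, whose reads lay toward the 3′ end, held 1.34 CPM there, the lowest non-responder, against 39.4 CPM for the whole gene. The overlap and that skew thus cannot be told apart in this value. Of the 10 edgeR fits that each left out 1 library, Rhbg passed in 2, those without responder 4 and without responder 6, and adjusted p ran from 0.0103 to 0.0823.

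Slc1a2 encodes GLT-1, a sodium-driven glutamate transporter best known from astrocytes and carried in liver by perivenous cells. The gene spans 102658659 to 102790784 on the plus strand of chromosome 2. The exon table gives its transcripts 11 different first exons, of which 9 share no base with a later exon of the transcripts of 10 or 11 exons. Among those 9, the reads lay almost wholly on the 46 bases from 102706438 to 102706483, which took 1065 reads over the 11 libraries. The most upstream one, 102658659 to 102659301, took 1 read, and the rest took at most 31. The other 2, further downstream, took 4118 and 1403 reads and overlap later exons, so those reads cannot be assigned to a start there. The exon at 102706438 held 50 to 86 reads in responders, 11, 31, 261 and 281 in non-responders and 80 in the untreated liver. Of 4 genes used as markers of astrocytes, Gfap had 112 reads over all libraries, Slc1a3 242, Aqp4 1290 and Gja1 1746, and their sum was 5.73 to 12.9 CPM in responders and 3.05 to 9.39 CPM in non-responders.

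Start-site windows (250 bases before to 50 after) were found for 6 of the 8 genes in RefSeq's table for GRCm38.p6, all except Rhbg and Rgn. Each window was searched on both strands for CTTTGAT and for CTTTGAA, which share their first 6 letters and are forms of the motif read by TCF/LEF, the DNA-binding partners of β-catenin. A match was found in 2 of the 6 windows, those of Slc1a2 and Lect2, each to CTTTGAT on the strand opposite the gene. The 2 are shown 5′ to 3′ on the gene's strand with the match in capitals. Over all 32851 promoters of the table, 3.73% hold CTTTGAT, 5.14% hold CTTTGAA and 8.65% hold either. The Slc1a2 window belongs to the first exon at 102706438.
Slc1a2, chr2:102706188-102706487, plus strand: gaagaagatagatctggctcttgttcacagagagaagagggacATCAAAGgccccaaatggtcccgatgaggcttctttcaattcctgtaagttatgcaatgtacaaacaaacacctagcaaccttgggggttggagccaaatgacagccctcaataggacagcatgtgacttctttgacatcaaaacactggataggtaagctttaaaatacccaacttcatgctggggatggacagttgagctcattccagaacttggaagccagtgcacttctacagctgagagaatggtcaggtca
Lect2, chr13:56548489-56548788, minus strand: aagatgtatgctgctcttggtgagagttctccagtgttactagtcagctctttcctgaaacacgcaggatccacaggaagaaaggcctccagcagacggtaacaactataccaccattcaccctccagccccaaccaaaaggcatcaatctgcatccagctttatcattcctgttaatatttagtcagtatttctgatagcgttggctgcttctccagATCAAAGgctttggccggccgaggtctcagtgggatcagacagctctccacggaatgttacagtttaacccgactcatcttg
In the Slc1a2 window the match begins at base -207 and in the Lect2 window at base -32, counted from the start site. A match describes the letters only and says nothing of binding in these livers.

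Slc1a2 levels were 127, 167, 138, 368, 102 and 128 CPM in responders, against 114, 59.8, 533 and 514 CPM in non-responders and 105 CPM in the untreated liver. Of the 11 libraries, non-responders 3 and 4 were highest, responder 4 came next and non-responder 2 was lowest. The non-responders thus spread over 8.91-fold, from below all responders to above them. Slc1a2 averaged 172 ± 98.4 CPM in responders and 305 ± 253 CPM in non-responders (SD, n = 6 and 4), and its log2 fold change of -0.83 ± 0.58 did not pass (edgeR adjusted p 0.391, 95% interval -1.97 to 0.31).

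Slc1a4 encodes ASCT1, an exchanger of alanine, serine, cysteine and other small neutral amino acids. It lies on the minus strand of chromosome 11 at 20302180 to 20332713. Its responder libraries held 5.24, 5.81, 6.22, 26, 6.40 and 22.0 CPM, against 46.8, 99.4, 45.1 and 53.2 CPM in non-responders and 3.70 CPM in the untreated liver. The groups did not overlap, and responders 4 and 6 stood between the other responders and the non-responders. Slc1a4 averaged 11.9 ± 9.44 CPM in responders and 61.1 ± 25.8 CPM in non-responders (SD, n = 6 and 4) and fell by 2.37 ± 0.52 on the log2 scale (edgeR adjusted p 0.0241). This was the widest difference among the 8 genes. Left out one at a time, responders 1, 2 and 5 and non-responder 2 each ended the call, with adjusted p of 0.0524, 0.0564, 0.0588 and 0.0762 and fold changes between -2.74 and -2.02 over all 10 such fits.

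Lect2 encodes a chemotactic protein that hepatocytes secrete and that has been described as a β-catenin target in liver. It lies on the minus strand of chromosome 13 at 56542460 to 56548538, and its start-site window is the second sequence shown above. Lect2 measured 75.3, 66.3, 60.1, 279, 61.9 and 218 CPM in responders, against 205, 388, 495 and 476 CPM in non-responders and 62.3 CPM in the untreated liver. Responders 4 and 6 exceeded non-responder 1, and the other 4 responders lay within 60.1 to 75.3 CPM. Lect2 averaged 127 ± 96.4 CPM in responders and 391 ± 132 CPM in non-responders (SD, n = 6 and 4). The log2 fold change of -1.63 ± 0.49 missed the threshold, with an edgeR adjusted p of 0.0580 and a 95% interval of -2.59 to -0.67. It passed with DESeq2 (adjusted p 0.00623), with limma-voom (0.0411) and in edgeR without responder 4 (0.0203) or without responder 6 (0.0425).

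Avpr1a encodes the vasopressin V1a receptor, which raises calcium in perivenous hepatocytes, and lies on the plus strand of chromosome 10 at 122448499 to 122453453. Avpr1a measured 44.8, 39.0, 36.1, 83.6, 29.8 and 52.6 CPM in responders, against 76.2, 136, 77.9 and 125 CPM in non-responders and 23.9 CPM in the untreated liver. Responder 4 was the one responder inside the range of the non-responders. The means were 47.7 ± 19.3 CPM in responders and 104 ± 31.1 CPM in non-responders (SD, n = 6 and 4), a fall by 1.13 ± 0.28 on the log2 scale (edgeR adjusted p 0.0309). Leaving out responder 1, 2, 3 or 5, or non-responder 2 or 4, ended the call, and adjusted p over the 10 such edgeR fits ran from 0.0115 to 0.104.

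Rgn encodes regucalcin, the gluconolactonase of vitamin C synthesis, and lies on the plus strand of chromosome X at 20549787 to 20562089. Rgn measured 1230, 1234, 926, 1313, 1017 and 1248 CPM in responders, against 728, 624, 1522 and 1592 CPM in non-responders and 1198 CPM in the untreated liver. Non-responders lay on both sides of the responders, a pair below all of them and a pair above. Rgn averaged 1161 ± 153 CPM in responders and 1117 ± 511 CPM in non-responders (SD, n = 6 and 4). The log2 fold change was 0.05 ± 0.27 (edgeR adjusted p 0.921, 95% interval -0.47 to 0.57), and its sign turned when non-responder 1 or 2 was left out.

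**Figure D2:**
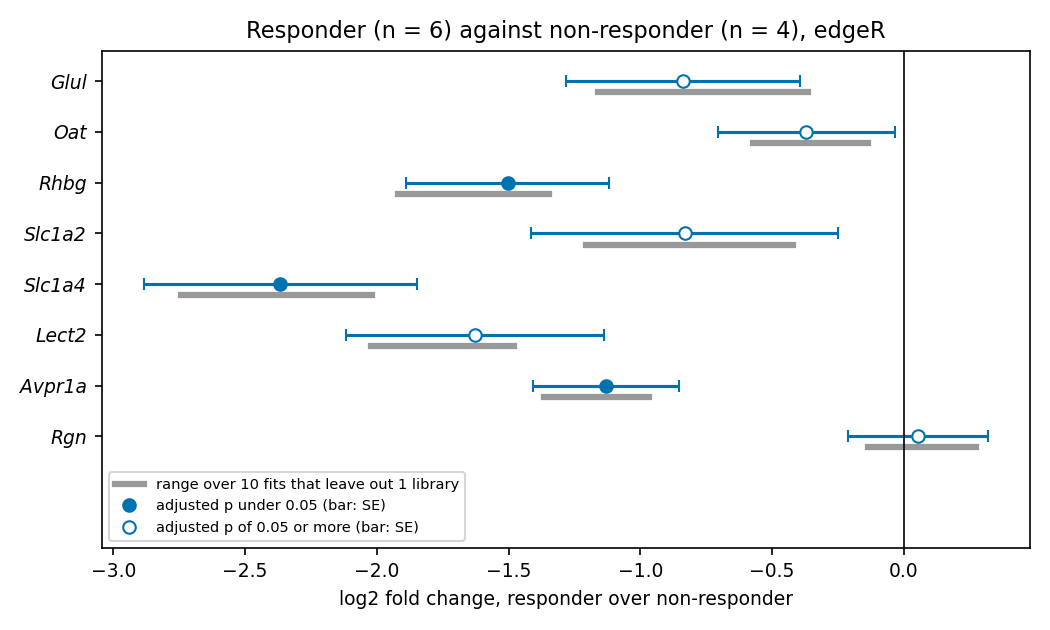
Log2 fold change of each gene, responder over non-responder, with its SE (circles and bars, filled where edgeR's adjusted p was under 0.05), and the range of that change over the 10 fits that left out 1 library each (grey bars). Slc1a4 at -2.37, Rhbg at -1.5 and Avpr1a at -1.13 are filled, and the grey bar of Rgn crosses 0.

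Per length, Rgn was the most abundant of the 8 and Slc1a4 the least. The authors' RPKM values had medians of 482 in responders and 493 in non-responders for Rgn. Oat had 124 RPKM in responders and 184 RPKM in non-responders, and Glul had 85.4 RPKM in responders and 174 RPKM in non-responders. Lect2 had a median of 51.4 RPKM in responders and 348 RPKM in non-responders, and so stood behind Rgn, Oat and Glul among responders and behind Rgn alone among non-responders. The transporters and the receptor stood lower, with medians of 10.1 RPKM in responders and 27.4 RPKM in non-responders for Avpr1a, and of 7.13 RPKM in responders and 17.0 RPKM in non-responders for Slc1a2. Rhbg had 3.22 RPKM in responders and 12.2 RPKM in non-responders, and Slc1a4 had 1.15 RPKM in responders and 9.34 RPKM in non-responders. Among responders, neighbours in this order overlapped in their ranges except Rgn with Oat and Lect2 with Avpr1a. Among non-responders, with Lect2 next to Rgn, they overlapped except Glul with Avpr1a. In the untreated liver, 5 of the 8 genes (Glul, Oat, Rhbg, Slc1a4 and Avpr1a) lay below every responder, and 6 lay below every non-responder, the sixth being Lect2. With 1 library this has no replicate check. The share of all genes tested that lay so was not counted, so the counts cannot be read as a trait of these genes.

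Across the 11 libraries the 8 genes, apart from Rgn, followed 2 courses. Glul, Oat and Slc1a2 peaked in the same 3 libraries and were low in non-responder 2. Their log2 CPM values had Pearson's r of 0.941 for Glul with Slc1a2, 0.913 for Glul with Oat and 0.909 for Oat with Slc1a2. Slc1a4, Lect2 and Avpr1a were instead high in non-responder 2 as well, and higher in responders 4 and 6 than in the other responders. Lect2 in non-responder 1 lay at the middle of the 11 libraries and below responders 4 and 6. Their pairs had r of 0.942 for Slc1a4 with Lect2, 0.943 for Slc1a4 with Avpr1a and 0.915 for Lect2 with Avpr1a. Rhbg went with these, at 0.888 with Slc1a4, and stood at 0.762 with Glul. Rhbg aside, values between the courses were lower, from 0.263 for Slc1a2 with Slc1a4 to 0.696 for Glul with Lect2. Rgn, placed in neither course, ran from -0.21 with Slc1a4 to 0.791 with Slc1a2. These correlations describe 11 libraries that include both groups, and no test was made of them.

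**Figure D3:**
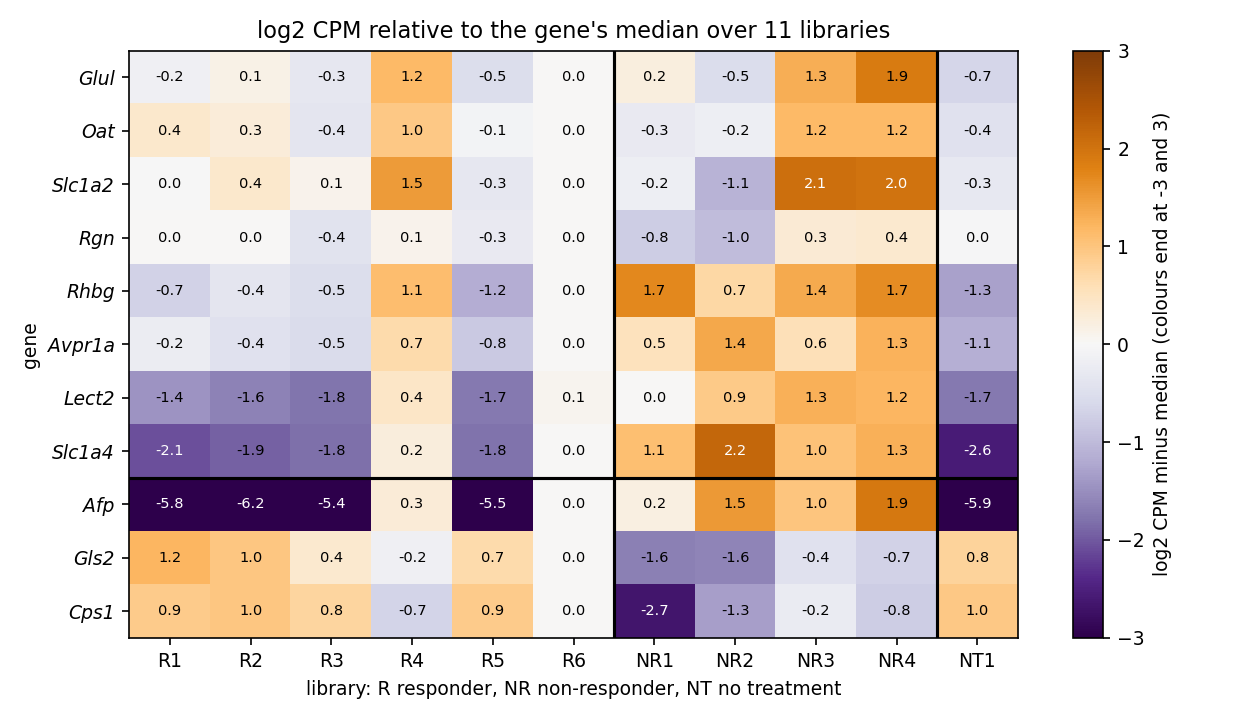
Log2 CPM of the 8 genes, and below the line of Afp, Gls2 and Cps1, in each library relative to the gene's own median over the 11 libraries (orange above, purple below), with responders left, non-responders in the middle and the untreated library right. Glul, Oat and Slc1a2 are orange in responder 4 and non-responders 3 and 4, and Slc1a4 and Lect2 are purple in the 4 responders that are also low in Afp.

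The genes whose log2 CPM most resembled each member were taken from 11422 genes over the 11 libraries, and r is given as a description. Glul was closest to Nkd1, a Wnt feedback inhibitor (0.981), then to Glns-ps1 (0.958) and Slc1a2. Oat was closest to Glns-ps1 (0.959), Nkd1 (0.933) and Teddm2 (0.931), and Slc1a2 to Glns-ps1 (0.964), Nkd1 (0.958) and Gba2 (0.955). Teddm2 shares 116 exon bases with Glul, so its counts are uncertain. Slc1a4 was closest to Anpep, an aminopeptidase (0.993), Nid1, a basement membrane protein (0.992), and Cdh17, an adhesion protein (0.990). Lect2 was closest to Rdh9 (0.983), Nxpe2 (0.981) and Afp (0.976). Avpr1a was closest to Slc34a2, a phosphate transporter (0.982), Rell1 (0.977) and Chmp6 (0.972). Rhbg was closest to the overlapping RHBG (1.0), then to Gstm3 (0.984) and Lhpp (0.970). Rgn was closest to Cyp1a2 (0.947), Akr1c6 (0.945) and Akr1a1 (0.942).

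Along Slc1a4 and Lect2, exon counts separated the groups at every exon once non-responder 1 was left out. In Slc1a4, 2 of 8 exons had every responder below every non-responder, and 8 of 8 did without that library. In Lect2 the numbers were 0 of 4 exons with that library and 4 of 4 without it. Rhbg went to 2 of 10 exons, against 1 of 10 with that library, and Glul, Oat, Slc1a2, Avpr1a and Rgn had 0 either way. Over the 59 exons of all 8 genes the count was 14 without that library and 3 with it. The share over the exons of all genes was not counted. Exons of 1 gene are read in the same libraries, so these counts are not independent. In exon 2 of Slc1a4 the separation rested on few reads, 25 in responder 6 and 27 in non-responder 3. Of all whole genes tested, 9.07% had every responder below the other 3 non-responders. Non-responder 1 placed 83.4% of its Slc1a4 exon reads in the last exon, against 51.7% to 59.3% in the other 10 libraries. Its log2 read density of the last over the first exon was 2.72 in Slc1a4, against -0.14 to 0.57 elsewhere, and 3.20 in Oat, against -0.23 to 0.41 elsewhere. Without non-responder 1, the edgeR fit gave -2.47 for Slc1a4 (adjusted p 0.0403), -1.25 for Avpr1a (0.0389), -1.84 for Lect2 (0.0627) and -1.39 for Rhbg (0.0808), so that Rhbg lost its call.

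**Figure D4:**
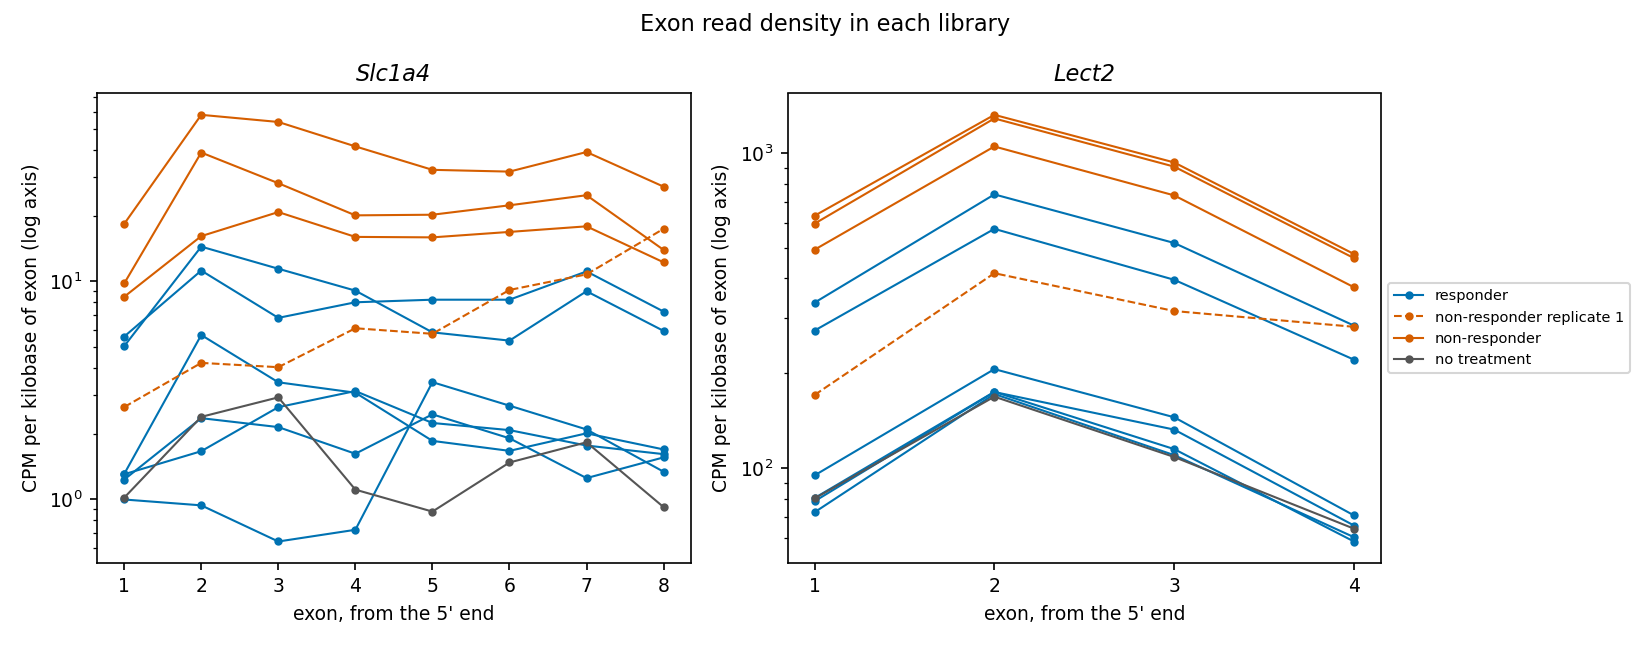
CPM per kilobase of each exon of Slc1a4 and Lect2, numbered from the 5′ end, on a log axis, with 1 line per library (blue responders, orange non-responders, grey untreated, dashed non-responder 1). The dashed line climbs relative to the 2 highest responder lines toward the 3′ end, and the other non-responder lines lie above all responder lines at every exon.

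Glutamine synthesis was next set against the periportal steps that release and dispose of ammonia. Gls2, the liver glutaminase, measured 123 to 316 CPM in responders with a median of 197 CPM, against 44.0, 45.5, 102 and 85.5 CPM in non-responders, and held 236 CPM in the untreated liver. The groups did not overlap, and Gls2 rose by 1.57 ± 0.33 on the log2 scale in responders (edgeR adjusted p 0.0212). Cps1, carbamoyl phosphate synthetase 1, which commits ammonia to urea, measured 1316 to 4106 CPM in responders with a median of 3769 CPM, against 335, 835, 1777 and 1245 CPM in non-responders and 4076 CPM in the untreated liver. Responder 4 lay within the range of the non-responders for Cps1, and the log2 fold change was 1.59 ± 0.45 (edgeR adjusted p 0.0462). Cps1 passed in 3 of the 10 fits that left out 1 library, those without responder 4, responder 6 or non-responder 3, with adjusted p of 0.0283 to 0.131 over all 10.

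The ratio of Glul to Gls2 reads within a library needs no scaling between libraries. On the log2 scale it was 0.36, 0.89, 1.04, 3.04, 0.56 and 1.71 in responders, against 3.58, 2.77, 3.46 and 4.29 in non-responders and 0.28 in the untreated liver. Responder 4 alone reached the non-responders. The means of 1.27 ± 0.99 in responders and 3.52 ± 0.62 in non-responders (SD, n = 6 and 4) differed by -2.26 with a p of 0.0190 in a two-sided exact permutation test over 210 assignments, or 0.0286 adjusted over the 2 ratios made. The log2 ratio of Glul to Cps1 was -3.29, -3.05, -3.31, -0.38, -3.62 and -2.23 in responders, against 0.65, -1.43, -0.67 and 0.43 in non-responders and -3.83 in the untreated liver. Its means of -2.65 ± 1.21 in responders and -0.26 ± 0.97 in non-responders (SD, n = 6 and 4) differed by -2.39, with an exact permutation p of 0.0286, also 0.0286 when adjusted. Responder 4 overlapped non-responders 2 and 3 for that ratio. Without non-responder 1 or without non-responder 4 the adjusted p of both ratios was 0.0714 in the same exact permutation test. A change in such a ratio shows unequal change of its 2 genes and, alone, not which of them moved. In the single-gene fits Gls2 and Cps1 passed (edgeR adjusted p 0.0212 and 0.0462) and Glul did not (0.251). The ratios use the same counts, so their tests are not separate support for a change in Glul.

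**Figure D5:**
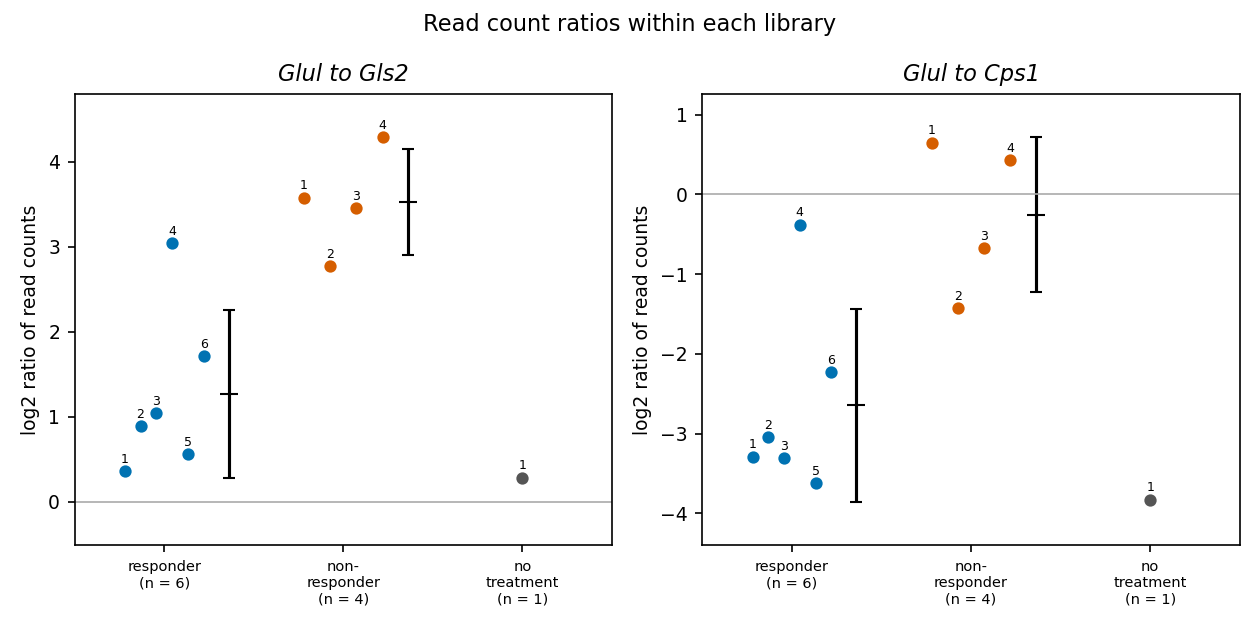
Log2 ratio of read counts within each library for Glul over Gls2 and Glul over Cps1 (points, numbered by replicate), with the mean and SD of responders and non-responders. Responder means of 1.27 and -2.65 lie below the non-responder means of 3.52 and -0.26, and responder 4 lies among the non-responders in both.

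Of 12 tested genes of the urea cycle and periportal ammonia disposal, 8 were higher in responders, 0 were lower (also 0 at an unadjusted p under 0.05 and with DESeq2 or limma-voom) and 4 did not pass (edgeR adjusted p under 0.05), with a median log2 fold change of 1.01 beside -0.02 over all genes. Beside Gls2 and Cps1 these included Hal, histidine ammonia-lyase, at 223 ± 83.8 CPM in responders and 63.3 ± 32.6 CPM in non-responders (SD, n = 6 and 4; log2 1.81). Ass1, argininosuccinate synthase, averaged 608 ± 284 CPM in responders and 206 ± 27.9 CPM in non-responders (log2 1.55). Arg1, the arginase that releases urea, averaged 792 ± 227 CPM in responders and 278 ± 140 CPM in non-responders (log2 1.51), and Slc25a15, the mitochondrial ornithine carrier, rose by 0.98 on the log2 scale. Car5a, mitochondrial carbonic anhydrase, rose by 0.87, but 23.5% of its exon bases are shared with the neighbouring BC048644. The count of higher genes was 0 without responder 2, responder 5 or non-responder 2, 2 without responder 1, 5 without responder 3, and 6 to 10 in the other 5 fits that left out 1 library.

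Among 26 tested enzymes of glutamine and glutamate metabolism, 4 were lower, beside 5.82% of all genes tested, and 4 were higher, beside 4.11%. The other 18 did not pass, and the median log2 fold change of the list was 0.24. The lower ones included Aldh18a1 and Pycr1, which build proline from glutamate, and Asns, which makes asparagine with nitrogen from glutamine. Aldh18a1 averaged 2.89 ± 1.25 CPM in responders and 10.2 ± 3.52 CPM in non-responders (SD, n = 6 and 4), a fall by 1.83 on the log2 scale (edgeR adjusted p 0.0149). Asns averaged 2.61 ± 2.20 CPM in responders and 24.1 ± 21.7 CPM in non-responders and fell by 3.24, and Pycr1 fell by 1.54. Oplah, which makes glutamate from oxoproline, rose by 0.64. Without non-responder 2 both counts were 0, and without responder 1, 2, 3 or 5 each was 2 or less; without non-responder 1, 2 were lower.

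Of 18 tested carriers of glutamine, glutamate and ammonia, 5 were lower, beside 5.82% of all genes tested, and 1 was higher, beside 4.11%. The other 12 did not pass, and the median log2 fold change of the list was -0.18. Apart from the members, 3 of 15 were lower. These were Slc13a3, a sodium-dependent dicarboxylate carrier, at 26.7 ± 22.4 CPM in responders and 117 ± 27.0 CPM in non-responders (log2 -2.14), Slc1a5, the glutamine exchanger ASCT2 (log2 -1.36), and Slc7a5, the LAT1 exchanger (log2 -1.04). The higher one was Slc38a3, the hepatocyte glutamine carrier SNAT3, at 2158 ± 487 CPM in responders and 1263 ± 227 CPM in non-responders (SD, n = 6 and 4; log2 0.77, edgeR adjusted p 0.0406). Both counts were 0 without responder 1, 2 or 5 or non-responder 2. Without responder 3, non-responder 1 or non-responder 4 none was higher, and 2, 2 and 3 were lower.

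Of 29 tested perivenous β-catenin targets, 6 were lower in responders, beside 5.82% of all genes tested, and 1 was higher, beside 4.11%. The other 22 did not pass, and 25 of the 29 had a negative log2 fold change, with a median of -0.83. The members are in this list, and without them 3 of 21 were lower. Lgr5, the R-spondin receptor of pericentral cells, averaged 10.2 ± 4.15 CPM in responders and 22.8 ± 7.27 CPM in non-responders (log2 -1.17), and Gstm3, a glutathione transferase, averaged 120 ± 54.5 CPM in responders and 262 ± 78.3 CPM in non-responders (log2 -1.14). Cyp27a1, a bile acid synthesis enzyme, rose by 0.62. Ctnnb1, the β-catenin gene itself, averaged 332 ± 38.1 CPM in responders and 502 ± 134 CPM in non-responders (SD, n = 6 and 4; log2 -0.60, edgeR adjusted p 0.0476). Ctnnb1 passed in 2 of the 10 edgeR fits that left out 1 library, those without responder 4 and without non-responder 1. Its adjusted p reached 0.156 without non-responder 2. Whether reads of the β-catenin and MET transgenes are counted in Ctnnb1 and Met was not tested. The count of lower targets was 0 without responder 1, 2 or 5 or non-responder 2, 1 without responder 3 or non-responder 4, 3 without non-responder 1 and 12 without responder 4. The 1 higher target was lost in the 4 fits with a count of 0. With all libraries, the lower count was 1 with no filter on low counts, 9 with DESeq2 and 10 with limma-voom, against 6 here.

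The list of vitamin C synthesis and calcium signalling around Rgn and Avpr1a gave 2 lower, 1 higher and 13 not passing of 16 tested. Its median log2 fold change was 0.03. Members are counted in it, and Avpr1a is 1 of the 2 lower genes. Without members 1 of 14 was lower. Over all genes tested, 5.82% were lower and 4.11% were higher. Gulo, whose enzyme catalyses the last step of vitamin C synthesis after that of Rgn, averaged 491 ± 177 CPM in responders and 1083 ± 66.9 CPM in non-responders (SD, n = 6 and 4), a fall by 1.15 on the log2 scale (edgeR adjusted p 0.0193). Rgn, 1 step earlier, had 0.05 in the same fit. Adra1a, an adrenergic receptor that signals through calcium as Avpr1a does, rose by 1.55, at 5.95 ± 1.92 CPM in responders and 2.01 ± 1.20 CPM in non-responders. Neither count held without responder 1, 2 or 5 or non-responder 2, where both were 0, and the higher one was also lost without responder 3 or non-responder 1. The lower count was 1 without responder 3 or non-responder 4.

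Markers of other cell types and states were read from the same fit, in which 5.82% of all genes tested were lower and 4.11% higher. Markers of Kupffer cells and macrophages, T and NK cells, B cells and stellate cells had 0 called of 5, 6, 4 and 6 tested. Summed fetal and tumour hepatocyte markers came to 2.19 to 234 CPM in responders and 299 to 862 CPM in non-responders, with 1 of 4 called lower (Igf2, a fetal growth factor). Summed proliferation markers came to 7.46 to 71.2 CPM in responders and 43.5 to 83.1 CPM in non-responders, with 1 of 4 called lower (Ccna2, a cyclin). Erythroid markers had 2 of 4 called lower (Hbb-bt, a globin, and Slc4a1, the red cell anion exchanger). The 4 erythroid markers summed to 36.1 to 73.5 CPM in responders and 49.2 to 102 CPM in non-responders. Slc4a1 was scarce, with 169 reads in the 11 libraries together. It measured 0.107 to 0.565 CPM in responders and 0.776 to 1.13 CPM in non-responders. Alas2, not called, leaned the other way, at 17.4 to 37.7 CPM in responders and 11.8 to 31.8 CPM in non-responders. Hba-a1, also not called, measured 5.89 to 16.2 CPM in responders and 6.11 to 47.7 CPM in non-responders. Of 6 endothelial markers, Lyve1 was called lower, while the sum was 215 to 356 CPM in responders and 115 to 312 CPM in non-responders. Cholangiocyte markers, with 0 of 5 called, summed to 17.5 to 25.9 CPM in responders and 25.7 to 69.7 CPM in non-responders, most of it Spp1 (up to 66.3 CPM). No measured marker of these lists was at 0 in every library. Their part in the differences of the 8 genes was not tested. The number in the sample titles ran from 1 to 29 in responders and from 26 to 37 in non-responders, and its meaning is not given in the sources used here. With it as a covariate in edgeR, 0 of the 8 genes passed, also at an unadjusted p under 0.05, and Slc1a4 had a log2 fold change of -1.28 (adjusted p 0.555), Rhbg -1.17 (0.565) and Avpr1a -0.83 (0.565), so the number and the response cannot be told apart here.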

How the data were processed

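Per the labels' protocols, liver RNA came from a TRIzol extraction and went into TruSeq libraries for Illumina sequencing. FastQC and mm10 are named in the submitters' processing notes. No source used here names an aligner, a counting tool, an annotation release or a strand setting. The deposited gene table holds a raw read count and an RPKM value per gene and library, and a second table a raw count per exon, per the file headers. All per-sample columns were mapped to samples by name.

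Responders (6) and non-responders (4), grouped by the response label and numbered in accession order, were compared over 17610 genes in R 4.3.3 with edgeR 4.0.16 (low counts removed by filterByExpr, TMM scaling, robust quasi-likelihood F test, Benjamini-Hochberg adjustment, threshold 0.05). The SE is the log2 fold change divided by the root of F, and the 95% interval is 1.96 SE to each side. Printed CPM use TMM factors over all 11 libraries. Log2 CPM for correlations has a prior count of 2. Ratios of counts were compared by exact permutation in scipy 1.17.1. Depth ran from 17876515 to 49884800 gene counts, and replicates of a group differed by more than sampling noise. Exon overlaps and strand were read from GENCODE M21, and start-site windows from RefSeq.

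Alternatives were RLE, upper quartile and total count scaling, no filter, a mean of at least 50 counts, DESeq2 1.42.0, limma-voom (limma 3.58.1), sums of exon counts, the untreated library fitted as an extra group, the title number as a covariate and each library left out in turn, and deposited RPKM for the ratios. The fitting step was tested on simulated data.

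The 8 genes and the gene lists were chosen with earlier results of these data known. Named genes were the 8, Glul, Gls2 and Cps1, up to 6 genes per list past the threshold by smallest p, and the 3 genes most like each member with an average log2 CPM of at least 1; 1 gene that the rule took is not reported here. Afp, Ctnnb1, Met and the cell type markers were given as checks, and the single markers were named after their values were seen.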

Additional observations from a re-analysis of the deposited data

Results flagged for a closer look

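A value was marked where the gap between the highest or lowest library of a group and its nearest neighbour was large against the range of the group (Dixon's 95% critical value). For normally distributed and independent groups chance marks about 1 in 20, and 4 of the 20 groups tested were marked. These shares cannot be compared, because the genes were tested as CPM without logs and can move together within a library. In 3 of them the library was responder replicate 4, the shallowest library, at 17876515 gene counts. Glul was at 1012 CPM there, with the next responder at 497 CPM. Slc1a2 was at 368 CPM there, with the next responder at 167 CPM. Rhbg was at 26.1 CPM there, with the next responder at 12.0 CPM. The gap took up 0.744, 0.758 and 0.681 of the range of the responders in these genes. The fourth was Slc1a4 in non-responder replicate 2, at 99.4 CPM with the next non-responder at 53.2 CPM, a gap of 0.851 of the range.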

How the results depend on the processing

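Over all genes, 1748 were called in responders against non-responders, 3045 with DESeq2, 1 with the title number as a covariate, and 79 to 1994 with 1 library left out, lowest without non-responder 2. Of the 8 members, 3 were called, 1 with no filter on low counts, 0 with the title number, and 0 to 4 with 1 library left out. That count was 0 without responder 1, 2 or 5 or non-responder 2, where edgeR gave an unadjusted p under 0.05 to 4, 4, 4 and 6 members. It was 4, with Lect2 added, with a mean of at least 50 counts, DESeq2 and limma-voom. With 1 library left out, Slc1a4 passed in 6 of 10 fits, Avpr1a in 4 and Rhbg in 2. Among the alternatives for single members, 130 kept direction and side of the threshold, mostly for members without a call to lose. Of the rest, 24 lost a call, all for Slc1a4, Avpr1a or Rhbg, 5 gained one and 2 turned. Both turns were for Rgn, whose log2 fold change ran from -0.14 to 0.27 with 1 library left out. Met ran from -0.14 to 0.24 likewise, and Afp turned to 0.76 with the title number. The log2 ratio of Glul to Gls2 differed by -2.61 to -2.0 and that of Glul to Cps1 by -2.84 to -2.09 with 1 library left out. Both ratios passed in the others but not without non-responder 1 (-2.24 and -2.09) or 4 (-2.0 and -2.16). Of 28 called list genes, 0 stayed called without non-responder 2 and 28 kept their sign in every alternative. The cause of these changes was not tested. With no filter, 2 carriers and 1 perivenous target were called lower and 7 urea cycle genes higher, and with the title number 0 genes of any list were called. The lowest count of any member in any library was 130, and the effect of depth on the members was not tested. No paired analysis was possible because the labels give no replicate numbers that the groups share.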
